A study of Mus musculus with 18 samples.

Results

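Interferon-stimulated genes are the genes that cells turn on when an interferon reaches its receptor. The 48 genes described here comprise antiviral effectors and sensors of the type I interferon response together with the guanylate-binding protein (GBP) and immunity-related GTPase (IRG) families. They were chosen by gene symbol from a list of known members, and all 48 were found among the 15402 genes measured by RNA-seq in T cells of Foxp3-Tocky mice. All 48 also passed the filter on low values (a mean log2 value of at least 3), as did 13190 genes in all. The 6 populations, with 3 replicates each, were sorted from draining lymph nodes of female C57/BL6 Foxp3Timer Foxp3-IRES-GFP mice at day 5 after 3% oxazolone had been put on the abdominal skin. No unsensitised mice were analysed here, so all 18 libraries share the sensitisation and both reporters. The 2 Foxp3- populations were CD44lo cells (Tnaive) and CD44hi cells (Teff). The 4 Timer+ populations of GFP+ cells were Pers1 and Pers2, which are persistent Foxp3 transcribers, PAt, which the labels call mature or quiescent, and Arrested, in which the study takes Foxp3 transcription to have stopped. Timer is a fluorescent protein whose blue form turns red with age, so that blue marks recent and red marks past transcription of Foxp3. The lymph nodes were pooled within 3 biological replicates and the 6 populations were taken from each.

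Type I interferons act through a receptor with the kinases JAK1 and TYK2 and a complex that includes STAT2 and IRF9, which binds the interferon-stimulated response element (ISRE). Interferon-gamma acts through the gamma-activated site (GAS), and it is the main inducer of most GBP and IRG genes. T cells are both a main source of interferon-gamma and responders to either class of interferon, and in regulatory T cells both signals are known to modify suppressive function.

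The labels were checked against marker genes. Foxp3 lay between 14.36 and 14.85 in the 12 Timer+ libraries and between 10.38 and 11.38 in the 6 Foxp3- libraries, on the log2 scale of the deposited normalised counts. In Arrested it lay between 14.40 and 14.45, within the range of PAt (14.36 to 14.65), so the Foxp3 transcript itself did not set Arrested apart from PAt. Cd44 lay between 9.47 and 9.72 in Tnaive and between 13.04 and 13.05 in Teff. Teff also carried markers of other cells. The summed level of 7 plasmacytoid dendritic cell markers was 12.58 to 13.10 in Teff and 9.54 to 10.97 in the other 15 libraries, and that of 6 conventional dendritic cell markers was 10.34 to 10.61 against 6.78 to 7.25. For 8 monocyte or macrophage markers the sum was 12.37 to 12.81 in Teff and 9.27 to 10.13 elsewhere. The 2 CD8 markers summed to 11.51 to 12 in Teff and to 9.65 to 10.70 in all other libraries. The defining plasmacytoid gene Siglech lay between 10.16 and 10.93 in Teff and no higher than 4.57 in any other library. Dendritic cells and macrophages are strong expressers of interferon-stimulated genes, and these marker values stand beside every comparison with Teff below. Their part in those results was not tested. The 7 B cell markers summed to 12.69 to 13.22 in Teff, 11.77 to 12.36 in PAt and Arrested, 11.22 to 11.43 in the persistent populations and 9.83 to 10.37 in Tnaive. Neutrophil markers were not analysed here. In sorted bulk samples, fewer cells with a high level and less RNA per cell cannot be told apart.

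Promoters of interferon-stimulated genes often carry the ISRE or the GAS, and a selection is printed to show members with and without the ISRE core. A promoter was taken as the 250 bases before to 50 bases after a transcription start of RefSeq in GRCm38.p6, and 34 of the 48 members had at least 1. The ISRE core, searched on both strands as GAAA and GAAA parted by any 2 bases, was present in 21 of the 34 members (61.8%) and in 3.99% of the 27025 genes with a promoter. Counted by promoter, it was in 53.7% of the 41 of the members and in 3.44% of all 32851. All 5 GBP genes and all 4 IRG genes with a promoter held it, as did 2 of 3 IFIT genes and 2 of 4 OAS genes. The GAS, searched as TTCNNNGAA, was present in 13 of the 34 members (38.2%) and in 9.55% of all genes with a promoter, and 8 members held both. The 150 bases before the start are given 5′ to 3′ on the strand of the gene, with ISRE cores in capitals. On these strands the core shows as the letters GAAA or, for a match on the opposite strand, as TTTC, on either side of the 2 free bases. Ifit3, Ifit1, Isg15 and Rsad2 are antiviral genes that differed between replicates, Gbp2b, Gbp3, Gbp7, Gm12250 and Irgm2 are examples of the GBP and IRG genes called between populations, and Oasl2 is a member with no core in the window.
Ifit3 (chr19:34583379-34583528, plus strand): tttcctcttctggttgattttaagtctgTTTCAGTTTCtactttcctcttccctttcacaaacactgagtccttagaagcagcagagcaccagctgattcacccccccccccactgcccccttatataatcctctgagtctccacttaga
Ifit1 (chr19:34640739-34640888, plus strand): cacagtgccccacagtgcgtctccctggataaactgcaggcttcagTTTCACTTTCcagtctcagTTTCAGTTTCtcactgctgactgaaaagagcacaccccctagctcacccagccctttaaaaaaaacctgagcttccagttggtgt
Isg15 (chr4:156200819-156200968, minus strand): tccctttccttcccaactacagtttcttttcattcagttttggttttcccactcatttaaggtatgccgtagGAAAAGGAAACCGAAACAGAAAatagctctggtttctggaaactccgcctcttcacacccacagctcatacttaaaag
Rsad2 (chr12:26456453-26456602, minus strand): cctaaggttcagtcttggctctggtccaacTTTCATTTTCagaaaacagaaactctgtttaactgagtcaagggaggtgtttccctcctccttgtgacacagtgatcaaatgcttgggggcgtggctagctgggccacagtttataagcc
Gbp2b (chr3:142594697-142594846, plus strand): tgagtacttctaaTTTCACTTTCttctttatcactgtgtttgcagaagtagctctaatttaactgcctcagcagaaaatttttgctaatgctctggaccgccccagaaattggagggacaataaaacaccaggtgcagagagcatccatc
Gbp3 (chr3:142559894-142560043, plus strand): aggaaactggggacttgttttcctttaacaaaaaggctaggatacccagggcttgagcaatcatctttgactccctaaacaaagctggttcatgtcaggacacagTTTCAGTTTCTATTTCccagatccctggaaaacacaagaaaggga
Gbp7 (chr3:142530186-142530335, plus strand): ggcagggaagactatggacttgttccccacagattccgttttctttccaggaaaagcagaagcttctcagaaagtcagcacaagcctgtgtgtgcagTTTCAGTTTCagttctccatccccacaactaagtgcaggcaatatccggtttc
Gm12250 (chr11:58183693-58183842, plus strand): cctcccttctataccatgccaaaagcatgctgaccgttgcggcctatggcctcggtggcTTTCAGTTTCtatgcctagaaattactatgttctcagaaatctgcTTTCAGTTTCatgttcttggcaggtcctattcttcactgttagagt
Irgm2 (chr11:58214827-58214976, plus strand): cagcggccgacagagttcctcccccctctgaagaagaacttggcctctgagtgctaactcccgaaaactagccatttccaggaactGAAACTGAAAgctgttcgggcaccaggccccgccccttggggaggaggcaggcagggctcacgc
Oasl2 (chr5:114896784-114896933, plus strand): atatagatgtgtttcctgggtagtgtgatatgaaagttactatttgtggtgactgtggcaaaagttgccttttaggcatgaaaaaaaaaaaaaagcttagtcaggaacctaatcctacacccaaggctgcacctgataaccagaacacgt
The nearest core ended 29 bases before the start of Gbp3, 36 before that of Gm12250, 43 before that of Gbp7, 56 before that of Isg15, 75 before that of Ifit1, 112 before that of Ifit3 and 127 before that of Gbp2b. In Isg15, 3 overlapping cores formed 1 run. A match is a description of the letters in this window and says nothing of the use of the site in these cells. Promoters of Mx1, Usp18, Oas2, Dhx58, Rtp4, Parp9, Parp14, Zbp1, Gbp4, Gbp6, Gbp8, Gbp9, Gbp10 and Iigp1 were not analysed here.

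The members did not move as a block between the 6 populations. A gene was called when its limma p-value, adjusted over the 13190 genes by the method of Benjamini and Hochberg, was under 0.05 and its log2 fold change was over 1 in either direction. Between the persistent populations and PAt with Arrested, no member was called higher and 4 were called lower (Oasl2, Usp18, Oasl1 and Gbp2b), where 4.74% of all genes were higher and 2.77% lower. In Teff against Tnaive, 2 members were called higher and 4 lower, where the background was 8.88% higher and 2.28% lower. In the persistent populations against Teff, 5 were higher and 2 lower, beside 4.28% and 4.03% of all genes. In PAt with Arrested, 5 members were higher and 1 was lower than in Tnaive (6.63% and 1.27% of all genes), and 9 were higher and 0 lower than in Teff (2.84% and 4.04%). These comparisons share libraries, so their values are set side by side only. No member was called between Pers2 and Pers1, where 0.144% of all genes were higher and 0.0455% lower. Gbp2b alone was called between Arrested and PAt, being lower in Arrested, where 0.0758% of all genes were lower. The median log2 difference over the 48 members ran from -0.15 for persistent against PAt with Arrested to 0.23 for PAt with Arrested against Teff, and that over all genes stayed between -0.013 and 0.005.

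Smaller differences were frequent among all genes in these data, and the members were read against them at an adjusted p under 0.05 alone. Against PAt with Arrested, 10 members were higher and 26 lower in persistent cells, beside 35.9% and 35.1% of all genes. Against Tnaive, 11 were higher and 14 lower in Teff (31.3% and 27.7% of all genes), and 22 higher and 4 lower in PAt with Arrested (26.9% and 23.8%). Against Teff, 22 were higher and 10 lower in persistent cells (29.8% and 28.9%), and 25 higher and 7 lower in PAt with Arrested (24.8% and 27.9%). Between Pers2 and Pers1, 4 members were higher and 4 lower (6.02% and 4.56% of all genes), and between Arrested and PAt 0 were higher and 3 lower (2.07% and 2.97%). As shares of the 48 members, the 26 lower in persistent cells were 54.2%, and the 25 higher in PAt with Arrested than in Teff were 52.1%.

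**Figure D1:**
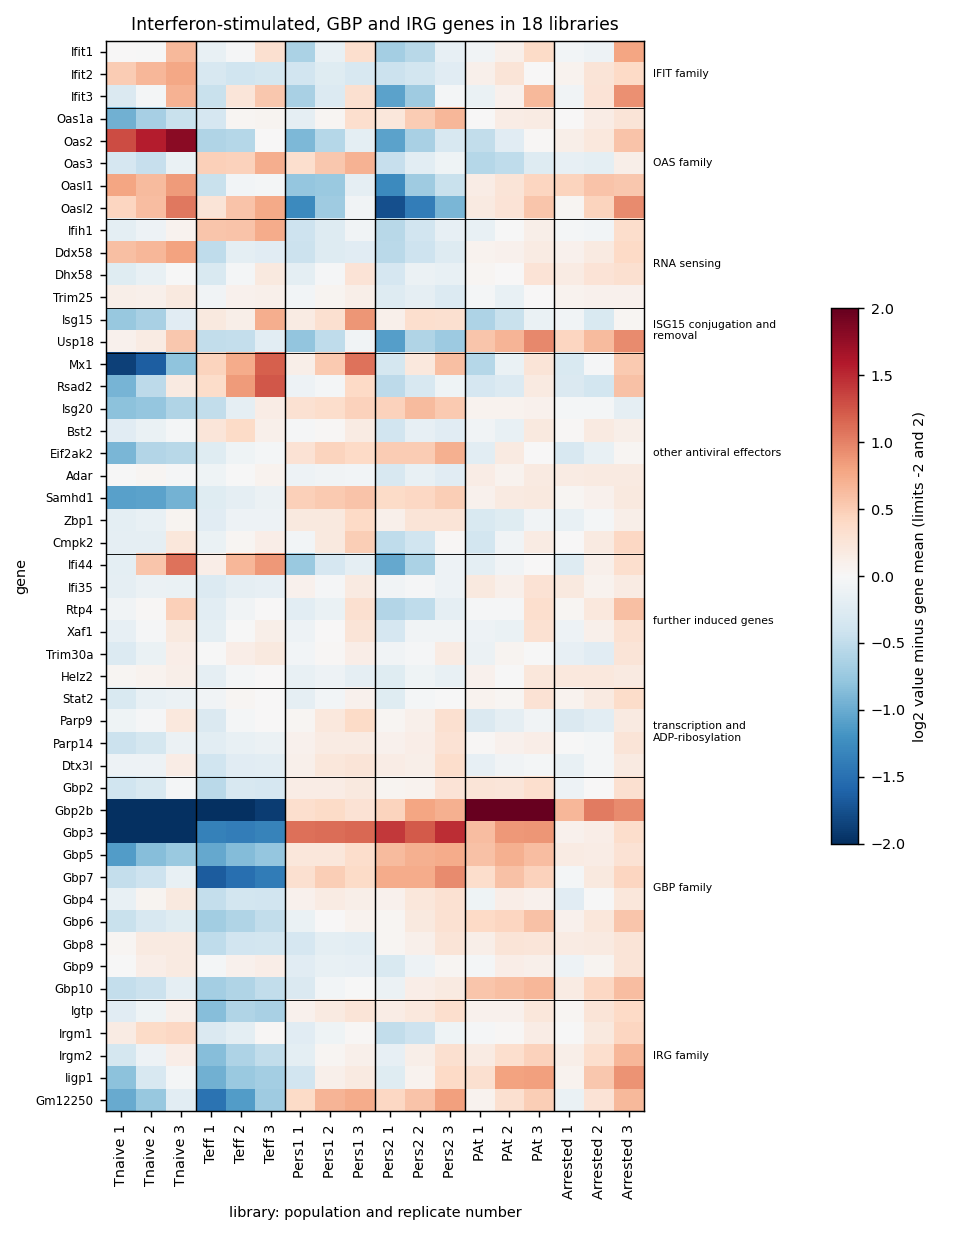
Each row is 1 of the 48 genes and each column 1 of the 18 libraries, grouped by population with replicates 1 to 3 side by side; colour gives the log2 value minus the mean of that gene over all libraries, limited to -2 and 2. Gbp2b and Gbp3 have the darkest blue in Tnaive, Oas2 is red in Tnaive, Oasl2 is blue in Pers1 and Pers2, and within most populations the replicate 3 column is redder than the replicate 1 column.

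Of the GBP genes, Gbp2b, Gbp3 and Gbp7 on chromosome 3 separated the populations most. GBPs are interferon-induced GTPases that gather on vacuoles and membranes of intracellular microbes. Gbp2b (chr3:142594847-142619179 of GRCm38 in GENCODE vM21, plus strand), formerly named Gbp1, read 4.78, 4.79 and 4.85 in replicates 1, 2 and 3 of Tnaive and 4.76, 4.79 and 4.94 in Teff. It read 7.18, 7.23 and 7.13 in Pers1 cells, 7.29, 7.64 and 7.55 in Pers2, 8.97, 9.11 and 9.03 in PAt and 7.51, 7.88 and 7.79 in Arrested. All 12 Timer+ libraries thus lay above the 6 Foxp3- libraries by more than 2 log2 units, Tnaive and Teff overlapped, and PAt stood above every other library. PAt with Arrested exceeded Tnaive by 3.57 ± 0.10 (SE, log2; an 11.9-fold difference, limma adjusted p = 1.37e-17) and Teff by 3.55 ± 0.10 (adjusted p = 4.2e-17). Arrested lay below PAt by 1.31 ± 0.11 (2.48-fold, adjusted p = 6.41e-07). The persistent populations exceeded Teff by 2.51 ± 0.10 (adjusted p = 7.96e-15) and lay below PAt with Arrested by 1.04 ± 0.08 (adjusted p = 2.82e-10), although their libraries overlapped those of Arrested.

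Gbp3, a GBP of the same cluster, had its highest values in Pers2 rather than in PAt. It read 8.51, 8.60 and 8.63 in Tnaive and 9.35, 9.31 and 9.36 in Teff. The Timer+ values were 11.80, 11.82 and 11.84 in Pers1 cells, 12.11, 11.93 and 12.17 in Pers2, 11.32, 11.56 and 11.58 in PAt and 10.78, 10.83 and 11.05 in Arrested. None of the 6 ranges overlapped, and the order from the lowest was Tnaive, Teff, Arrested, PAt, Pers1 and Pers2. The persistent populations exceeded Teff by 2.61 ± 0.07 (log2, 6.09-fold, limma adjusted p = 1.05e-17), and PAt with Arrested exceeded Tnaive by 2.61 ± 0.07 (6.1-fold, adjusted p = 4.23e-18) and Teff by 1.85 ± 0.07 (adjusted p = 2.84e-15). Within the Timer+ cells, Arrested was below PAt by 0.60 ± 0.08 (log2) and Pers2 above Pers1 by 0.25 ± 0.08, both with an adjusted p under 0.05 (6.25e-05 and 0.0436) and neither past the threshold on the fold change.

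Gbp7 and Gbp5, also on chromosome 3, parted from each other in the Foxp3- cells. Gbp7, which is known to help deliver the oxidase and autophagy machinery to phagosomes, read 12.01, 12.08 and 12.34 in Tnaive and 10.83, 10.98 and 11.09 in Teff. In the Timer+ cells it read 12.82, 12.99 and 12.88 in Pers1 cells, 13.23, 13.24 and 13.44 in Pers2, 12.84, 13.08 and 12.96 in PAt and 12.46, 12.69 and 12.93 in Arrested. Gbp7 was thus lowest in Teff, where it lay below Tnaive by 1.18 ± 0.10 (log2, 2.26-fold, limma adjusted p = 2.46e-09). It was higher than in Teff by 2.13 ± 0.09 in the persistent populations (4.38-fold, adjusted p = 1.73e-14) and by 1.86 ± 0.09 in PAt with Arrested (3.63-fold, adjusted p = 1.84e-13). Gbp5, which promotes inflammasome assembly, did not separate the Foxp3- populations, with 9.82, 10.08 and 10.20 in Tnaive and 9.91, 10.07 and 10.17 in Teff. Its Timer+ values were 11.17, 11.16 and 11.29 in Pers1 cells, 11.57, 11.65 and 11.68 in Pers2, 11.52, 11.65 and 11.55 in PAt and 11.10, 11.08 and 11.23 in Arrested. Pers2 and PAt overlapped at the top, and Pers1 and Arrested overlapped below them. Gbp5 exceeded Teff by 1.37 ± 0.07 in the persistent populations (2.58-fold, adjusted p = 7.22e-13) and by 1.31 ± 0.07 in PAt with Arrested (2.47-fold, adjusted p = 1.69e-12), and it exceeded Tnaive by 1.32 ± 0.07 in PAt with Arrested (adjusted p = 1.05e-12). Gbp2, the fifth gene of the cluster, spanned less, from a mean of 11.35 ± 0.13 (SD, n = 3) in Teff to 12.04 ± 0.05 in PAt.

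The 5 GBP genes on chromosome 5 varied less between populations than Gbp2b, Gbp3, Gbp7 and Gbp5. Gbp10 was called in 1 comparison, with 1.09 ± 0.09 (log2, limma adjusted p = 1.18e-09) in PAt with Arrested over Teff, and its means ran from 11.10 ± 0.09 (SD, n = 3) in Teff to 12.30 ± 0.06 in PAt. Gbp6 had the same order at its ends, with 12.32 ± 0.10 in Teff and 13.39 ± 0.10 in PAt, and its difference from Teff of 0.98 missed the fold threshold. Of the distinct stretches of 100 bases in their transcripts, 73.5% in Gbp10 and 64.5% in Gbp6 occur in another gene as well, mainly in each other and in Gm43302, so their values are uncertain. Gbp4, Gbp8 and Gbp9 were called in no comparison. Gbp4 ranged in its means from 13.27 ± 0.05 in Teff to 13.88 ± 0.11 in Pers2, and Gbp8 from 11.77 ± 0.08 in Teff to 12.39 ± 0.07 in PAt. Gbp9 differed least, from 12.70 ± 0.04 in Pers1 to 12.97 ± 0.10 in Tnaive. Over the 10 GBP genes, 4 were called higher in the persistent populations than in Teff (4.28% of all genes). In PAt with Arrested, 5 were called higher than in Teff (2.84% of all genes) and 3 higher than in Tnaive (6.63%). The libraries of 9 of the 10 lay wholly above Teff in either Timer+ pair, where 24.9% of all genes did so for the persistent populations and 18.7% for PAt with Arrested.

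**Figure D2:**
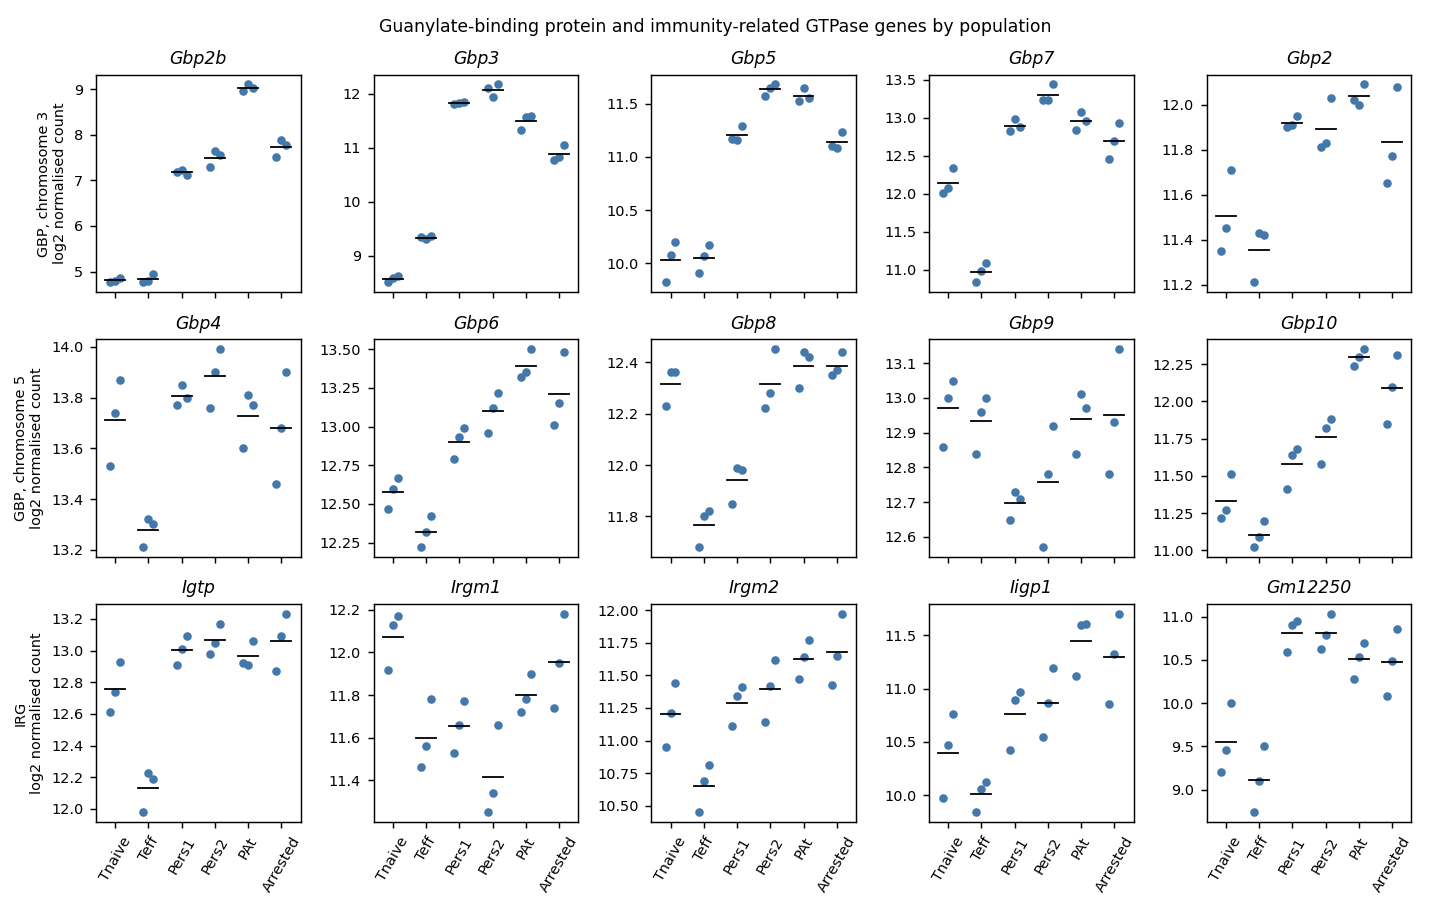
Each panel is 1 gene, with the log2 normalised count on a vertical axis of its own scale; points are the 3 replicates of each population and bars their means. The top row holds the GBP genes of chromosome 3, where Gbp2b and Gbp3 lie far below their other values in Tnaive and Teff; the middle row holds those of chromosome 5, and the bottom row the IRG genes, among which Gm12250 and Iigp1 are low in Teff.

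IRG genes encode GTPases that damage the vacuoles of intracellular parasites, and 3 of the 5 were called higher than in Teff in at least 1 comparison. Gm12250, also known as Irgb10, read 9.20, 9.46 and 10 in Tnaive and 8.74, 9.10 and 9.51 in Teff. It read 10.59, 10.90 and 10.95 in Pers1 cells, 10.63, 10.79 and 11.03 in Pers2, 10.28, 10.54 and 10.70 in PAt and 10.08, 10.49 and 10.86 in Arrested. The 4 Timer+ ranges overlapped one another and all lay above both Foxp3- ranges. Gm12250 exceeded Teff by 1.70 ± 0.18 (log2, 3.24-fold, limma adjusted p = 4.63e-08) in the persistent populations and by 1.38 ± 0.18 (2.6-fold, adjusted p = 1.16e-06) in PAt with Arrested. Iigp1, known to coat parasite vacuoles, read 9.97, 10.47 and 10.76 in Tnaive, 9.84, 10.06 and 10.12 in Teff, 10.42, 10.89 and 10.97 in Pers1 and 10.55, 10.87 and 11.19 in Pers2. Its values were 11.12, 11.60 and 11.61 in PAt and 10.86, 11.33 and 11.70 in Arrested, so that PAt with Arrested lay above Teff without overlap, by 1.37 ± 0.18 (2.58-fold, adjusted p = 1.77e-06). Irgm2, a regulatory IRG that guards the cell's own membranes, differed in the same comparison by 1.01 ± 0.12 (adjusted p = 4.71e-07), close to the fold threshold, and missed it without Teff replicate 1 (0.91), PAt replicate 3 (0.97) or Arrested replicate 3 (0.93). Igtp was lowest in Teff (12.14 ± 0.13, SD, n = 3) and lay between 12.76 ± 0.16 and 13.07 ± 0.18 in the other means. Irgm1 was highest in Tnaive (12.07 ± 0.14) and lowest in Pers2 (11.42 ± 0.21), and was called in no comparison. Of the 5 IRG genes, 1 was called higher in the persistent populations than in Teff (4.28% of all genes). In PAt with Arrested, 3 were called higher than in Teff (2.84% of all genes).

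The 4 members called lower in the persistent populations included 3 genes of the antiviral arm. Oasl2, a catalytically active relative of the oligoadenylate synthetases, read 7.70, 8.27 and 8.90 in Pers1 and 7.22, 7.59 and 8.06 in Pers2. It read 9.16, 9.25 and 9.54 in PAt, 9.02, 9.43 and 9.92 in Arrested, 9.40, 9.59 and 10.03 in Tnaive and 9.24, 9.55 and 9.73 in Teff. The 6 persistent libraries all lay below the other 12, and Tnaive, Teff, PAt and Arrested overlapped. The difference was -1.43 ± 0.18 against PAt with Arrested (log2, 2.7-fold lower, limma adjusted p = 5.3e-07) and -1.55 ± 0.22 against Teff (2.93-fold lower, adjusted p = 4.59e-06). Usp18, the protease that removes ISG15 and dampens the type I receptor, read 9.06, 9.33 and 9.77 in Pers1 and 8.74, 9.24 and 9.11 in Pers2. It read 10.39, 10.52 and 10.80 in PAt, 10.27, 10.48 and 10.79 in Arrested, 9.93, 10.01 and 10.38 in Tnaive and 9.35, 9.36 and 9.63 in Teff. Here the persistent libraries overlapped Teff and lay below PAt and Arrested, by 1.33 ± 0.12 (2.52-fold, adjusted p = 3.03e-09). PAt with Arrested also exceeded Teff, by 1.10 ± 0.15 (adjusted p = 2.2e-06).

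Oasl1, known to restrain translation of the interferon regulator IRF7, followed Usp18. Its values were 6.87, 6.89 and 7.46 in Pers1 cells, 6.37, 6.92 and 7.19 in Pers2, 7.78, 7.90 and 8.07 in PAt and 8.09, 8.20 and 8.17 in Arrested, with 8.43, 8.27 and 8.49 in Tnaive and 7.19, 7.58 and 7.60 in Teff. The persistent libraries lay below PAt and Arrested without overlap, by 1.09 ± 0.13 (log2, limma adjusted p = 1.36e-07). Without Pers2 replicate 1, Oasl1 (-0.97) and Gbp2b (-0.99) fell short of the fold threshold and 2 members, Oasl2 and Usp18, were called lower. The remaining members differed by less, and in both directions. Gbp3 (0.76), Isg15 (0.62), which encodes the ubiquitin-like modifier, and Eif2ak2 (0.56), which encodes the RNA-activated kinase PKR, were higher in the persistent populations at an adjusted p under 0.05 (9.8e-11, 0.000208 and 1.21e-06), with log2 differences below the threshold. Ifit3 (-0.69), Oas2 (-0.65), Iigp1 (-0.56), Ddx58 (-0.52), Gbp10 (-0.52) and Ifit2 (-0.51) were lower on the same terms. All 3 IFIT genes, whose proteins bind foreign RNA ends, and all 4 RNA-sensing genes were lower at an adjusted p under 0.05, as were 35.1% of all genes, and none of these 7 passed the threshold on the fold change.

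In the Foxp3- cells, members of the antiviral arm parted in direction between Teff and Tnaive. Mx1, a GTPase that traps viral nucleoproteins, read 7.61, 7.83 and 8.68 in Tnaive and 9.92, 10.22 and 10.68 in Teff. The 2 ranges lay apart, and the difference was 2.24 ± 0.30 (log2, 4.71-fold, limma adjusted p = 1.49e-06). Mx1 read 9.60, 10 and 10.57 in Pers1 cells, 9.13, 9.69 and 10.08 in Pers2, 8.91, 9.34 and 9.74 in PAt and 9.18, 9.46 and 10.01 in Arrested, all above Tnaive. PAt with Arrested exceeded Tnaive by 1.41 ± 0.26 (2.65-fold, adjusted p = 0.000106). C57BL/6 mice are known to carry a Mx1 allele with deleted exons, so the values count its transcript and not a functional protein. Rsad2, which encodes viperin, read 7.45, 7.86 and 8.56 in Tnaive and 8.75, 9.23 and 9.63 in Teff. Teff lay above Tnaive by 1.24 ± 0.27 (2.37-fold, adjusted p = 0.000426), and by 0.99 without Tnaive replicate 1, under the fold threshold. The Rsad2 values of the Timer+ cells ran from 7.86 in Pers2 to 8.97 in Arrested, and overlapped both Foxp3- populations. Siglech, given above at 10.16 to 10.93 in Teff, stands beside both differences.

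Oas2 had the opposite pattern and set Tnaive apart from all other populations. This gene encodes a synthetase of the oligoadenylates that activate RNase L. It read 11.51, 11.78 and 12.02 in Tnaive and 9.61, 9.64 and 10.21 in Teff. It read 9.31, 9.64 and 10.01 in Pers1 cells, 9.14, 9.56 and 9.89 in Pers2, 9.71, 9.99 and 10.23 in PAt and 10.33, 10.42 and 10.78 in Arrested. All 3 Tnaive libraries lay above the other 15. Against Tnaive the difference was -1.95 ± 0.20 in Teff (log2, 3.86-fold lower, limma adjusted p = 3.56e-08) and -1.53 ± 0.17 in PAt with Arrested (2.88-fold lower, adjusted p = 2.06e-07). Ifit2 read 11.37, 11.52 and 11.63 in Tnaive and 10.54, 10.46 and 10.50 in Teff, and Ddx58, which encodes the RNA sensor RIG-I, read 12.75, 12.82 and 12.96 against 11.64, 11.95 and 11.93. Both were lower in Teff without overlap, by 1.01 ± 0.08 (adjusted p = 1.46e-09) and 1.00 ± 0.09 (adjusted p = 3.36e-09), at the edge of the fold threshold. Ifit2 missed it without Teff replicate 2 or Tnaive replicate 2 or 3 (values of -0.95 to -1.0), and Ddx58 without Tnaive replicate 3 (-0.94) or Teff replicate 1 (-0.90). In the Timer+ cells Ifit2 lay between 10.42 and 11.25 and Ddx58 between 11.62 and 12.55, below Tnaive in each library. Ifih1, which encodes the related sensor MDA5, went the other way, with 10.57, 10.67 and 10.84 in Tnaive and 11.32, 11.34 and 11.51 in Teff, a difference of 0.69 (adjusted p = 2.27e-05) that did not pass the fold threshold.

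Samhd1, the nucleotide hydrolase that limits retroviral DNA synthesis, was ordered by population with little spread. It read 14.06, 14.07 and 14.20 in Tnaive, 14.90, 14.97 and 15.02 in Teff, 15.62, 15.67 and 15.71 in Pers1 and 15.52, 15.56 and 15.64 in Pers2. PAt read 15.23, 15.32 and 15.34 and Arrested 15.19, 15.23 and 15.34. Tnaive and Teff each stood apart from all other populations, whereas Pers1 overlapped Pers2 and PAt overlapped Arrested. PAt with Arrested exceeded Tnaive by 1.17 ± 0.05 (log2, 2.25-fold, limma adjusted p = 1.04e-14). Ifi44, an interferon-induced gene of uncertain function, was lower in the persistent populations than in Teff by 1.06 ± 0.23 (adjusted p = 0.000481). Its values were 5.98, 6.51 and 6.71 in Teff, 5.10, 5.51 and 5.66 in Pers1 and 4.82, 5.21 and 5.74 in Pers2, with 5.65, 6.40 and 6.93 in Tnaive, and the difference missed the fold threshold without Teff replicate 3 (-0.90), Pers1 replicate 1 (-0.98) or Pers2 replicate 1 (-0.95). Oas3, another oligoadenylate synthetase, gave the largest difference between the persistent populations, with 11.25, 11.44 and 11.61 in Pers1 and 10.45, 10.69 and 10.83 in Pers2. Pers2 lay wholly below Pers1, by 0.78 ± 0.12 (adjusted p = 0.000188), under the fold threshold. At an adjusted p under 0.05 alone, 8 members differed between Pers2 and Pers1 (10.6% of all genes), and 21 did with the replicate number as a block (14.2% of all genes). Between Arrested and PAt, 3 members did (5.04%), and 10 with the block (7.09%).

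The contrast of persistent with PAt and Arrested cells was set against that of Teff with Tnaive cells, in which cells also differ in activation. The difference between the 2 log2 differences was called in 7 members, 2 higher and 5 lower, where 1.52% of all genes were higher and 6.9% lower. At an adjusted p under 0.05 alone, 11 were higher and 13 lower (23.2% and 25.5% of all genes). Mx1 differed by 0.40 in the persistent comparison and by 2.24 in the effector comparison, and the difference of differences was -1.83 ± 0.36 (limma adjusted p = 0.000285). For Rsad2 it was -1.27 ± 0.33 (adjusted p = 0.00286), for Ifih1 -1.04 ± 0.14 (adjusted p = 2.9e-06), for Oasl2 -1.26 ± 0.32 (adjusted p = 0.00234) and for Gbp2b -1.06 ± 0.14 (adjusted p = 2.2e-06). Mx1, Rsad2 and Ifih1 were higher in Teff than in Tnaive, whereas Oasl2 and Gbp2b were lower in the persistent populations and differed by -0.17 and 0.02 between Teff and Tnaive. Gbp7 (1.45 ± 0.13, adjusted p = 4.48e-09) and Oas2 (1.30 ± 0.25, adjusted p = 0.000171) differed by -1.18 and -1.95 between Teff and Tnaive and by 0.27 and -0.65 in the persistent comparison. Ifih1 missed the fold threshold, at values of -0.97 to -1.0, without Tnaive replicate 1, Teff replicate 3, Pers1 replicate 1, Pers2 replicate 1 or Arrested replicate 3.

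**Figure D3:**
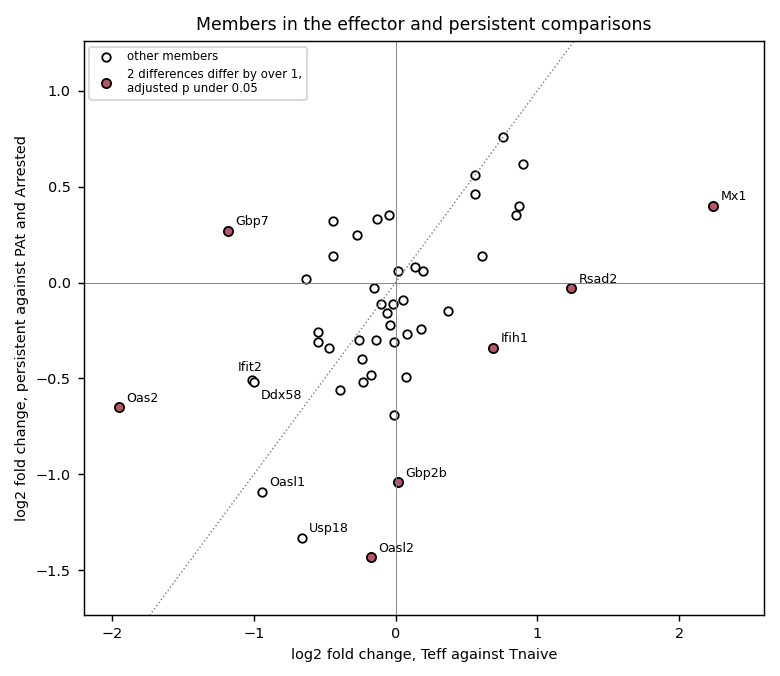
Each point is 1 of the 48 genes, with its log2 fold change in Teff against Tnaive on the horizontal axis and in the persistent populations against PAt and Arrested on the vertical axis; the dotted line marks equal values. The 7 filled points are the genes for which the 2 log2 fold changes differ by over 1 at an adjusted p under 0.05, among them Mx1 far to the right, Oas2 far to the left and Oasl2 at the bottom.

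The second axis of variation was the replicate number, which 37 of the 48 members (77.1%) followed. The test was a limma F test across the 3 numbers with population as a covariate, at an adjusted p under 0.05 and with no threshold on the fold, and 506 of the 13190 genes (3.84%) passed it. A number was read as marking the same pool of mice in all 6 populations. The p-values and SE by replicate thus measure how alike these 3 pools differ across the sorted populations, and not the spread between pools. That several of these genes differed by replicate was known when they were put together, so the count is a description and no independent evidence. Replicate 3 was above replicate 1 in the mean of all 48 members, by 0.05 to 0.96 on the log2 scale with a median of 0.26. Over all genes it was above in 6456 of the 13190, with a median difference of -0.002. Replicate 3 was the highest of the 3 in all 6 populations for 23 members, where 1.05% of all genes had this pattern. For 14 members replicate 1 was also the lowest in all 6 populations (0.326% of all genes). The number accounted for a median of 79.3% of the variance within populations of the members and for 22.2% of that of all genes. In each library of replicate 1, between 1 and 4 of the 48 members lay above their population mean, and in each library of replicate 3 between 43 and 47 did. Over all genes, the median deviation of a library from its population mean stayed between -0.004 and 0.004. Since the comparisons above carry no term for the replicate, this difference is part of the spread in them. The median SD of the members was 0.12 to 0.19 in the 6 populations, and that of all genes was 0.07 to 0.11.

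**Figure D4:**
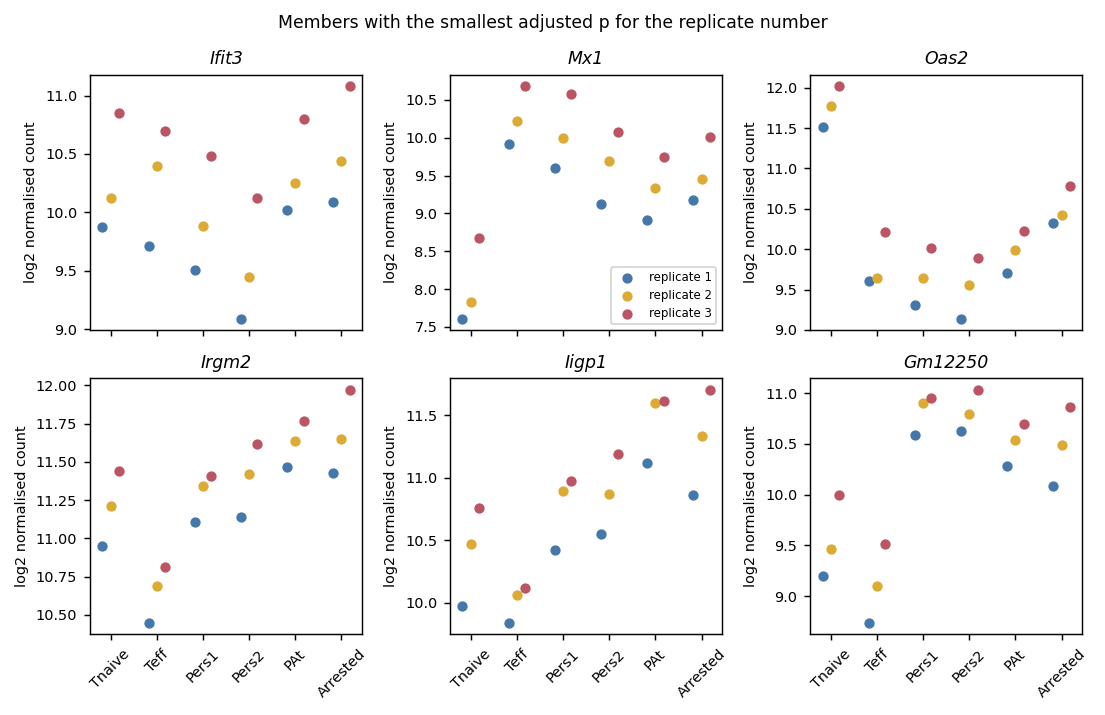
Each panel shows the log2 normalised count of 1 gene in the 6 populations, with replicates 1, 2 and 3 in blue, yellow and red. In all 6 genes and all 6 populations the red point is the highest and the blue point the lowest, also where the populations differ from each other, as for Oas2 in Tnaive.

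Ifit3 gave the smallest adjusted p of the members. Its values in replicates 1, 2 and 3 were 9.87, 10.12 and 10.85 in Tnaive, 9.71, 10.40 and 10.70 in Teff, 9.51, 9.88 and 10.48 in Pers1 cells, 9.09, 9.45 and 10.12 in Pers2, 10.02, 10.25 and 10.80 in PAt and 10.09, 10.44 and 11.08 in Arrested. Replicate 3 exceeded replicate 1 by 0.77 to 1.03 in the single populations, and by 0.96 ± 0.05 (log2, 1.94-fold) over all 6 (F = 156, limma adjusted p = 1.41e-09). Between populations, the means of Ifit3 ran only from 9.55 ± 0.53 (SD, n = 3) in Pers2 to 10.54 ± 0.50 in Arrested. Of the Ifit3 transcript, 31.7% of stretches of 100 bases are shared with Ifit3b, so the 2 genes may share reads. Mx1 was next, with 0.90 ± 0.06 (1.87-fold, adjusted p = 1.44e-08) and single populations between 0.76 and 1.07. Oas2 differed by 0.59 ± 0.05 (adjusted p = 1.63e-06) and Iigp1 by 0.60 ± 0.06 (adjusted p = 2.85e-06). For Gm12250 the difference was 0.59 ± 0.06 (adjusted p = 1.17e-05).

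Irgm2, the last of the 6 members with the smallest adjusted p, read 10.95, 11.21 and 11.44 in Tnaive, 10.45, 10.69 and 10.81 in Teff, 11.11, 11.34 and 11.41 in Pers1 cells, 11.14, 11.42 and 11.62 in Pers2, 11.47, 11.64 and 11.77 in PAt and 11.43, 11.65 and 11.97 in Arrested. It too had replicate 1 lowest and replicate 3 highest in each population, with an overall difference of 0.41 ± 0.04 (1.33-fold, limma adjusted p = 2.74e-06). By role, the test was passed by all 5 IRG genes, both genes of ISG15 conjugation and removal and all 4 genes of transcription and ADP-ribosylation (Stat2, Parp9, Parp14 and Dtx3l), by 4 of 5 OAS genes, 2 of 3 IFIT genes, 3 of 4 RNA-sensing genes, 6 of 9 other antiviral effectors, 4 of 6 further induced genes and 7 of 10 GBP genes. The IFIT genes had the largest median difference, 0.65, and the GBP genes and the genes of transcription and ADP-ribosylation each had 0.22. The GBP range was narrow, from 0.13 for Gbp2b and Gbp3 to 0.27 for Gbp10. Gbp2b (F = 2.58, adjusted p = 0.357) and Gbp3 (F = 3.81, adjusted p = 0.23), which differed most between populations, were among the 11 members that did not pass, as were Gbp5, Oasl1, Ifit2, Bst2, Isg20, Trim25, Helz2, Adar and Ifi35. In the 12 Timer+ libraries alone, 21 members passed, where 1.05% of all genes did.

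**Figure D5:**
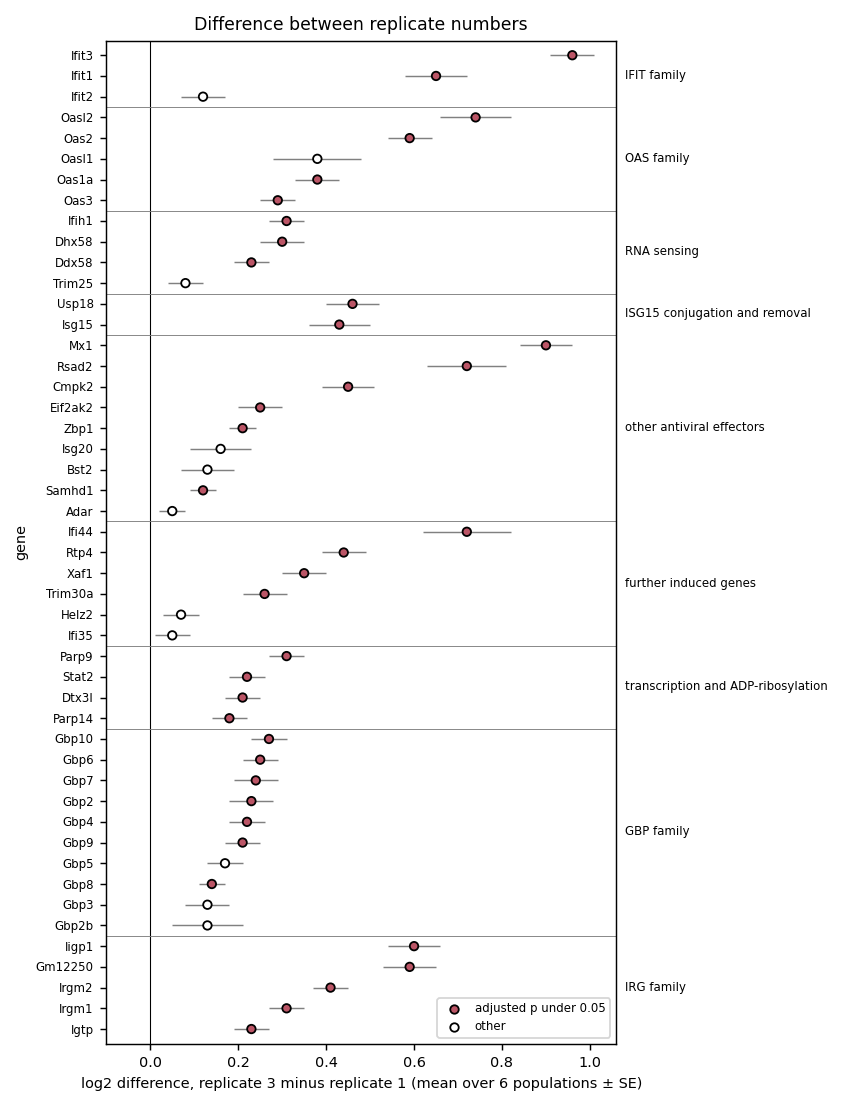
Each row is 1 of the 48 genes, grouped by role, with the log2 difference of replicate 3 from replicate 1 averaged over the 6 populations and its SE as a horizontal bar. All 48 points lie right of 0; filled points are the 37 genes that passed the test across the 3 numbers, and Ifit3 (0.96) and Mx1 (0.90) lie farthest to the right.

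Other genes moved with the replicate number as well. Chosen after their values were seen, the heat shock genes Hspa1a (2.10 ± 0.10 on the log2 scale, replicate 3 minus replicate 1), Hspa1b (1.99 ± 0.09) and Hspa1l (1.89 ± 0.10) had larger differences than any member, and their limma adjusted p-values were 1.95e-10, 1.95e-10 and 1.1e-09. Of the 5 heat shock genes looked at, 4 were higher in replicate 3, and Hsph1 was lower (-0.27 ± 0.05, adjusted p = 0.000138). Of 10 genes of early activation, 6 were lower in replicate 3, among them Sik1 (-1.46 ± 0.10, adjusted p = 3.71e-08), Tnfaip3 (-1.25 ± 0.07, adjusted p = 2.71e-09) and Dusp5 (-0.85 ± 0.08, adjusted p = 2.49e-06). Jun (0.49, adjusted p = 0.000335) and Fosb (0.39, adjusted p = 0.000235) were higher, and Fos (0.11, adjusted p = 0.367) and Egr1 (0.17, adjusted p = 0.126) did not pass the test. Their part in the difference of the members was not tested. Of the marker lists, the summed level of the 7 plasmacytoid dendritic cell markers deviated from its population mean by -0.06 to 0.18 in replicate 1 and by -0.35 to 0.11 in replicate 3, and none of these markers passed the replicate test. None of the conventional dendritic cell, macrophage, NK cell or T cell markers passed it. Of the B cell markers, 1 of 7 passed, Ms4a1, which encodes the B cell antigen CD20 (0.48, adjusted p = 0.0232). Of the CD8 markers, 1 of 2 passed, Cd8a (0.33, adjusted p = 0.044). Replicate 3 exceeded replicate 1 by 0.20 to 0.48 in the B cell markers and by 0.17 and 0.33 in the CD8 markers. The B cell sum deviated by -0.35 to -0.01 in replicate 1 and by -0.01 to 0.34 in replicate 3. For the CD8 sum these values were -0.21 to -0.09 and -0.06 to 0.23. For the monocyte or macrophage sum they were -0.04 to 0.19 and -0.25 to 0.09. The part of these cells was not tested.

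The promoters of these genes were set beside the replicate difference. Of the 21 members with an ISRE core in the window, 17 passed the replicate test, and their difference of replicate 3 from replicate 1 ran from 0.13 to 0.96 with a median of 0.26. Of the 13 members with a promoter and no core, 6 passed, with a range of 0.05 to 0.74 and a median of 0.16. Both ranges overlap widely, and Oasl2, with no core in the sequence printed above, had the largest difference of the second group (0.74). Gbp2b and Gbp3, which did not pass, both hold a core.

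The other genes of the pathway were described from a list of 87, of which 81 were tested, ordered from ligands to targets. Ifng, the gene of interferon-gamma, had a mean of 5.25 in Tnaive and of 7.28 to 8.01 in the other 5 populations, and exceeded Tnaive by 2.76 in Teff (limma adjusted p = 6.4e-13) and by 2.08 in PAt with Arrested (adjusted p = 7.51e-12). By replicate it differed by 0.00 ± 0.11 (adjusted p = 0.999). The type I interferon genes Ifnb1 and Ifna4 were not analysed here. Of 5 receptor chains tested, Ifngr2 was called lower in persistent cells than in PAt with Arrested, at -1.2 (adjusted p = 1.12e-13), with means of 9.71 and 9.82 in Pers1 and Pers2, 10.97 and 10.95 in PAt and Arrested, 11.33 in Tnaive and 9.86 in Teff. Socs1, the inhibitor of the receptor kinases, was lower in the same comparison by 1.44 (adjusted p = 4.06e-08), and its means were 9.14 and 9.51 in the persistent populations and 10.72 and 10.81 in PAt and Arrested. Of the further targets, Ifit1bl1 (-1.42, adjusted p = 7.39e-08) was lower and Ly6a, which encodes the surface antigen Sca-1, was higher (2.19, adjusted p = 6.27e-16). In all, 1 of the 81 genes was called higher and 5 lower in persistent cells than in PAt with Arrested (4.74% and 2.77% of all genes).

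In Teff against Tnaive, 16 of the 81 pathway genes were called higher and 9 lower (8.88% and 2.28% of all genes). The 4 largest differences were those of Irf8, a transcription factor of dendritic and B cells (3.73, limma adjusted p = 1.72e-15), the protease inhibitor Serpina3g (3.54, adjusted p = 1.96e-16), the MHC class II activator Ciita (3.09, adjusted p = 2.17e-13) and the DNA sensor Tlr9 (3.02, adjusted p = 1.25e-12). Irf8, Ciita and Tlr9 are also characteristic of dendritic and B cells, whose marker levels in Teff are given above. The summed plasmacytoid dendritic cell markers given there include Irf8 itself. In the persistent populations 3 pathway genes were higher and 8 lower than in Teff (4.28% and 4.03% of all genes), led by Tlr9 (-2.79, adjusted p = 5.73e-13) and Ciita (-2.78, adjusted p = 1.65e-13). PAt with Arrested had 9 higher and 0 lower than Tnaive (6.63% and 1.27% of all genes), with Serpina3g first (4.65, adjusted p = 1.69e-19), and 9 higher and 10 lower than Teff (2.84% and 4.04%). No pathway gene was called between Pers2 and Pers1 or between Arrested and PAt, where 0.19% and 0.121% of all genes were.

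By replicate number, 30 of the 81 pathway genes passed the test (3.84% of all genes), 29 with replicate 3 above replicate 1 and 1, the chemokine gene Cxcl10, below. Of these, 26 were among the 48 further targets tested, with Ifit3b (0.96, limma adjusted p = 3.71e-08), Slfn8 (0.40, adjusted p = 7.47e-07), Ifit1bl1 (0.66, adjusted p = 1.63e-06) and Slfn5 (0.36, adjusted p = 5.73e-06) first. The others included Irf7 (0.32, adjusted p = 0.000152) and Irf9 (0.19, adjusted p = 0.00107), which encode transcription factors of the type I response, and Tlr7. Ifng, the only 1 of the 4 listed ligand genes that was tested, did not pass, and neither did any receptor or inhibitor gene tested. The median difference was 0.01 over the 5 receptor genes and 0.20 over the 48 further targets.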

How the data were processed

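Libraries were made from total RNA of sorted cells with a stranded mRNA kit and sequenced in pairs of reads. Per the labels, CASAVA 1.8.2, FastQC 0.11.2, TopHat2 2.0.9 (genome build mm10) and DESeq2 were used. The table that the authors deposited gives, for 15402 genes in 18 libraries, normalised counts on a log2 scale that look like a regularised log (some are slightly negative). No read counts enter the analysis, so that depth is unknown and no counting interval can be given; the transform draws differences of genes with few reads towards 0. Whether the counting used strand is not given in the sources used here. Of the members, 10 overlap another gene on their own strand and 12 on the opposite strand.

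The values were used as deposited, with no pseudocount. Genes with a mean of at least 3 (13190) were tested with limma 3.58.1 (R 4.3.3, eBayes with trend), in 1 fit of all 6 populations with 12 residual degrees of freedom. p-values were adjusted by Benjamini and Hochberg over all tested genes, and calls needed both a value under 0.05 and a log2 fold change beyond 1 in either direction, the thresholds of the study. The replicate number was tested by an F test with population as a covariate. In simulated data of 13190 genes with 200 changed, 200 were recovered for a log2 effect of 2 in the persistent comparison, with 0 false calls, and 200 for a log2 effect of 1 in replicate 3 in the test of the replicate number, with 6 false calls. Both effects were larger than those of any member in the same comparison, and recovery of smaller effects was not simulated.

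The series design has all 6 populations sorted from each biological replicate, so the number was read as pairing the libraries. Deviations from the population means had a median correlation of 0.166 in 45 pairs of libraries with the same number (42 above 0) and of -0.0642 in 90 pairs with different numbers (17 above 0), and of 0.158 in the former without the members. Deviations within a population sum to 0, so the values for different numbers fall where those for the same number rise. The former are therefore no independent comparison.

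The members, the pathway list and the marker lists were chosen with earlier results of these data known. The level of every member was taken in each population, and library values were given for the 6 called members with the largest log2 fold change in a comparison, the largest difference where none was called, and the 6 members with the smallest adjusted p by replicate number; pathway genes were named where called, at most 4 a comparison by size, with Ifng, Tlr7, Irf7, Irf9 and Cxcl10 added after their values were seen. One pathway gene is not reported here. Ifih1 and Irgm2 are named for their position at the threshold. Promoters came from RefSeq (GRCm38.p6) and coordinates from GENCODE vM21 (GRCm38). Figures were drawn with matplotlib 3.10.9.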

Additional observations from a re-analysis of the deposited data

Results flagged for a closer look

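A pair of contrasts, 1 among the Timer+ and 1 among the Foxp3- cells, differed by over 1 on the log2 scale at an adjusted p under 0.05 for 7 members. The test was of the difference of the persistent contrast (Pers1 and Pers2 minus PAt and Arrested) from the contrast of Teff minus Tnaive (limma, adjusted over 13190 genes, 3 replicates a population). Mx1 gave -1.83, Rsad2 -1.27, Oasl2 -1.26, Gbp2b -1.06 and Ifih1 -1.04 on the log2 scale, and Gbp7 gave 1.45 and Oas2 1.30. Mx1, Rsad2 and Ifih1 were higher in Teff, the population with Siglech at 10.16 to 10.93, and the part of other cells in these values was not tested. For Oasl2 and Gbp2b the Foxp3- populations differed by -0.17 and 0.02, and the difference lay within the Timer+ cells. Groups of 3 libraries are too small for a test of single outlying libraries.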

How the results depend on the processing

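The depth of the libraries is unknown and the precision rests on 3 replicates a population. Of the 9 counts of called members, none changed by more than 1.5 times with another filter on low values, with only the populations compared (the replicate number excepted), with the replicate block, without the variance trend or with each library centred on its median. That centring moved the medians of the members by at most 0.083 and added Oasl1 to the members lower in Teff than in Tnaive (5). The replicate block changed no count of called members. Without the fold threshold, at an adjusted p under 0.05 alone, the counts were 36 for persistent against PAt with Arrested, 25 for Teff against Tnaive, 32 for persistent against Teff, 26 for PAt with Arrested against Tnaive, 32 for PAt with Arrested against Teff, 8 for Pers2 against Pers1, 3 for Arrested against PAt and 24 for the difference of differences. With the replicate block on the same terms, an alternative chosen after seeing the data, they were 41, 33, 37, 35, 37, 21, 10 and 30, where 72.6%, 61.7%, 61.3%, 53.8%, 55.7%, 14.2%, 7.09% and 51.6% of all genes passed. In the 12 Timer+ libraries alone, with fewer samples, 21 members passed the replicate test (1.05% of all genes). Without the variance trend 29 passed (2.11% of all genes). Leaving out 1 library at a time gave 2 to 4 members for persistent against PAt with Arrested, 5 to 7 for Teff against Tnaive, 6 to 8 for persistent against Teff, 6 to 8 and 8 to 10 for PAt with Arrested against Tnaive and Teff, 0 for Pers2 against Pers1, 1 for Arrested against PAt, 6 to 7 for the difference of differences and 32 to 38 for the replicate number. The lowest of the first, 2, was without Pers2 replicate 1. Without all 6 libraries of replicate 2, also chosen after seeing the data, the difference of differences of Oasl2 (-1.21) had an adjusted p of 0.0641 by limma. Centring changed the sign of 21 log2 differences of members, all at most 0.07 in size and 0 of them with an adjusted p under 0.05 in the limma fit without centring (Gbp2b in Teff against Tnaive, for example, went from 0.02 to -0.06). No difference of a called member changed sign under the alternatives tried.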
